A study of Equus caballus with 19 samples.

Results

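AP-1 is a family of transcription factors whose proteins work in pairs. The genes described here are the 10 AP-1 and closely related bZIP genes *FOS*, *FOSB*, *FOSL1*, *FOSL2*, *JUN*, *JUNB*, *JUND*, *ATF3*, *MAFF* and *BATF3*. They were chosen by gene name and make up 10 of the 29196 gene names in each of the deposited count tables. All 10 were found in both tables, and all 10 passed the filter on low values in each batch. The cells were wild-type adult tenocytes grown out of the superficial digital flexor tendon of Thoroughbred horses, where each line came from 1 donor and had been passaged before use. Every line was kept in 3D gels of bovine type 1 collagen for 14 days. In the first batch 5 lines (lines 1 to 5) were cultured as an unstimulated control and with 1 nM IL-1β, which gave 10 libraries. In the second batch 3 further lines (lines 6 to 8) were cultured unstimulated, with IL-1β at 1 nM, or with the same IL-1β plus 100 ng/ml IL1Ra, a protein that occupies the IL-1 receptor without activating it, which gave 9 libraries. IL1Ra alone was not among the libraries. The question addressed was how the AP-1 genes differ in level between these conditions after 2 weeks of stimulation.

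IL-1β signals through its receptor to NF-κB and to the JNK, p38 and ERK kinases, and these kinases act on AP-1 both by phosphorylating proteins that are already present and by switching on the genes that encode them. FOS proteins pair mainly with JUN proteins to bind DNA, whereas JUN proteins can also pair among themselves. *FOS*, *FOSB*, *JUNB* and *ATF3* are immediate-early genes, which are known to respond within minutes to hours of a stimulus and then to return towards their starting level, so that a day 14 sample records a late state. In tendon and other connective tissue AP-1 is best known for driving genes of matrix breakdown, such as collagenases and stromelysin, and of inflammation.

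First-batch libraries summed to 43.4 to 49.2 M normalised counts, of which the AP-1 genes held 0.1128 to 0.1534%. Second-batch libraries summed to 25.0 to 34.6 M, of which they held 0.1016 to 0.1574%. Tenocyte markers made up 26000 to 43200 CPM (normalised counts scaled to a common library sum) in the first-batch controls, whereas *TNMD*, which encodes the late tendon marker tenomodulin, was at 0 in all libraries except the control of line 6 (1.00 normalised counts). In the second batch *SCX*, the tendon transcription factor scleraxis, stood at 4720 normalised counts in the control of line 6 but at 266 and 105 in those of lines 7 and 8. The monocyte and macrophage gene *CD14* was high in line 5, at 1947 normalised counts in the control and 2811 with IL-1β, against at most 71.4 in the other first-batch libraries. In the second batch it held 1195, 1158 and 1482 in the control, IL-1β and IL-1β + IL1Ra libraries of line 6. In line 7 it held 0, 1262 and 645 in the same order, and it was at 0 in line 8. The general leukocyte gene *PTPRC* did not exceed 6.46 normalised counts in any library, *CD79A* was at 0 in all libraries, and *CD3E* was at 0 except for 1.07 normalised counts in 1 library. The macrophage gene *CD68* was higher with IL-1β in the first batch (log2-fold change 2.64, limma, Benjamini-Hochberg adjusted p = 0.00265), and the summed leukocyte list ran from 1.35 to 46.9 CPM in the controls and from 6.92 to 84.8 with IL-1β, both in the first batch, with 3 to 6 of its 8 genes at 0 in each IL-1β library there and both maxima in line 5. Of the tenocyte markers 7 of 10 tested fell in the first batch (3 without line 5), and of the smooth muscle and pericyte markers 3 of 5 fell, against 1163 of the 14719 genes tested. The tenocyte markers did not all go 1 way. Mean normalised counts of *DCN* were 61190 in the controls and 101600 with IL-1β, and those of *LUM* were 61550 and 116900. Of 2 endothelial markers tested 0 were DE by limma, 2 passed an unadjusted p of 0.05 and 1 was DE once line was a block. The part of these markers in the AP-1 results was not tested. These are bulk samples, so a change in the number of cells of a type and a change in RNA per cell cannot be told apart.

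In the first batch IL-1β raised *ATF3* and *BATF3*. In the fit reported first, which leaves out the pairing by line, the FOS and JUN genes that form the core of AP-1 were not differentially expressed (DE). With the line as a block *FOSB* was DE too (limma adjusted p = 0.0463), where 16.2% of all genes were DE. A gene was called DE where limma, run on log2(normalised count + 1), gave a Benjamini-Hochberg adjusted p under 0.05 over all genes tested and a log2-fold change of 1 or more in either direction. *ATF3* rose 2.44-fold and *BATF3* 8.26-fold. This makes 2 of 10 AP-1 genes DE, both higher, where 12.8% of the 14719 genes tested were DE and 4.91% were DE and higher. An unadjusted p under 0.05 was found for 5 of 10, against 39.5% of all genes. In 4 of 10 the IL-1β library was above the control in every line and in 1 of 10 it was below in every line, against 24.8% and 25.0% of all genes. For none of the 10 did the groups separate without overlap, against 19.5% of all genes.

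*ATF3* encodes a bZIP repressor and activator that is induced by many kinds of cell stress. Its control libraries of lines 1 to 5 held 794, 727, 205, 548 and 589.7 normalised counts, and the IL-1β libraries of the same lines held 1624, 1549, 1172, 1841 and 612. All lines were higher with IL-1β, but line 5 differed by only 0.05 on the log2 scale, while line 3, which had the lowest control, differed by 2.51. The log2-fold change was 1.29 ± 0.40 (SE, n = 5 lines, 95% interval 0.41 to 2.17, limma adjusted p = 0.035). Without line 1, 2, 3 or 4 it ran from 0.98 to 1.35 and was no longer DE (limma adjusted p = 0.0661, 0.0792, 0.0661 and 0.117), and over all alternatives tried the adjusted p ran from 0.0187 to 0.117.

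*BATF3* encodes a small bZIP protein that pairs with JUN proteins and is best known from dendritic cells and lymphocytes. It held 17.4, 2.62, 0, 2.85 and 0 normalised counts in the controls of lines 1 to 5 and 54.5, 22.8, 16.6, 46.2 and 8.004 in their IL-1β libraries. Every line was higher with IL-1β, and the control of line 1 exceeded the IL-1β libraries of lines 3 and 5. The log2-fold change was 3.05 ± 0.84 (SE, n = 5 lines, 95% interval 1.19 to 4.9, limma adjusted p = 0.0212). With so few counts its size depended on the pseudocount, with 3.5 at a pseudocount of 0.5 and 1.89 at a pseudocount of 5, DE in each case. It passed the filter through 4 IL-1β libraries and the control of line 1, so that without line 1 it was not tested, and without line 2, 3 or 4 it was not DE (limma adjusted p = 0.0664, 0.0629 and 0.076). The range of adjusted p over the alternatives was 0.00231 to 0.076.

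**Figure D1:**
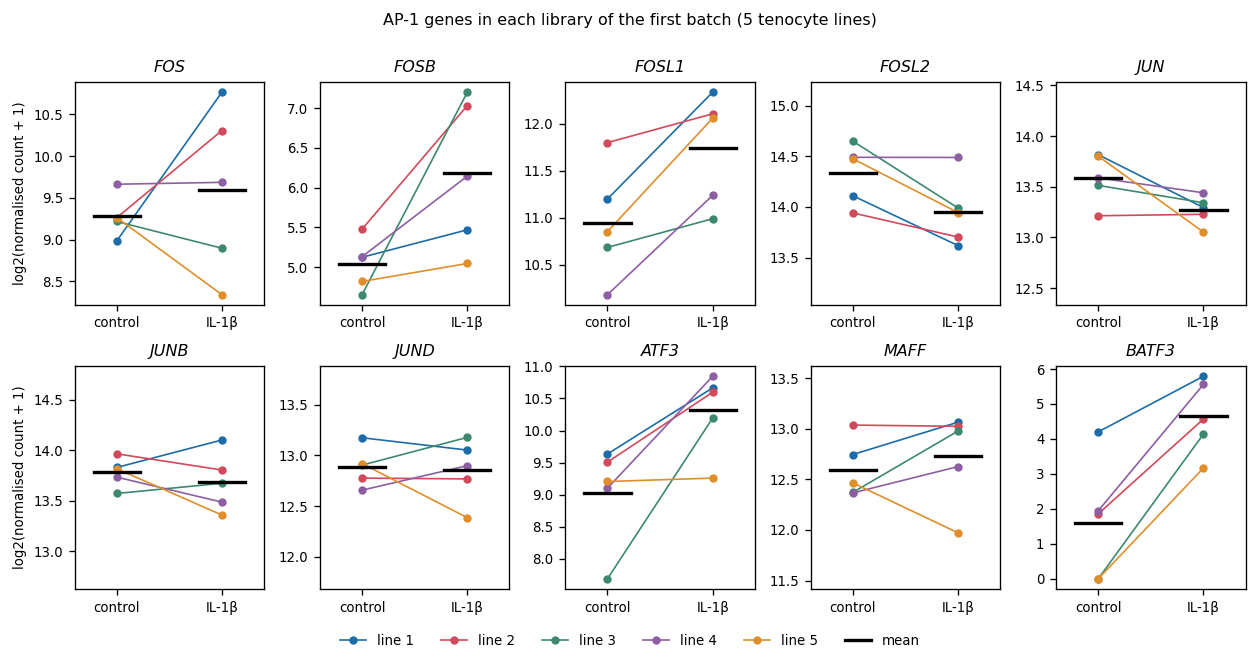
AP-1 genes in the 10 libraries of the first batch, as log2(normalised count + 1) on a separate vertical scale for each gene. Points are libraries, coloured lines join the control and IL-1β library of a tenocyte line, and black bars are means of the 5 lines. *ATF3* and *BATF3* are higher with IL-1β in all lines, whereas *FOS* is higher in lines 1 and 2, nearly level in line 4 and lower in lines 3 and 5.

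Among the FOS genes the lines disagreed most for *FOS* itself, which encodes the founding and least stable member of the family. It held 505, 613, 594, 809.97 and 614 normalised counts in the controls of lines 1 to 5 and 1742, 1266, 476, 823 and 323 with IL-1β. Its values spread more with IL-1β (coefficient of variation 63.0%) than in the controls (17.8%), since it was higher in lines 1, 2 and 4 and lower in lines 3 and 5. The log2-fold change was 0.32 ± 0.41 (SE, n = 5 lines, 95% interval −0.58 to 1.22, limma adjusted p = 0.597).

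*FOSB*, a close relative of *FOS*, held 33.9, 43.6, 24.2, 34.1 and 27.2 normalised counts in the controls and 43.3, 130.0, 146, 69.8 and 32.1 with IL-1β. It was higher in all lines, most in lines 2 and 3 and least in lines 1 and 5. The log2-fold change of 1.14 ± 0.43 (SE, n = 5 lines, 95% interval 0.19 to 2.09) was not DE (limma adjusted p = 0.0728). With the tenocyte line as a block in the fit, the same log2-fold change was DE (limma adjusted p = 0.0463), which made 3 of 10 AP-1 genes DE, where 16.2% of all genes were DE in that fit. It was also DE after quantile normalisation (1.37, limma adjusted p = 0.0331), and over all alternatives its adjusted p ran from 0.0331 to 0.239.

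*FOSL1* and *FOSL2* encode the Fos-related antigens FRA1 and FRA2, which lack the strong activation domain of FOS and form longer-lived complexes with JUN proteins. *FOSL1* held 2351, 3562, 1646, 1161 and 1849 normalised counts in the controls of lines 1 to 5 and 5167, 4405, 2033, 2416 and 4268 with IL-1β. It was higher in all lines, by 0.30 in line 3 to 1.21 in line 5 on the log2 scale, and the groups overlapped because the controls of the lines differed 3.07-fold. The log2-fold change was 0.80 ± 0.33 (SE, n = 5 lines, 95% interval 0.07 to 1.54) and was not DE (limma adjusted p = 0.0984, and 0.00938 with the line as a block, where it stayed under the fold threshold).

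*FOSL2* differed in the other direction, with 17676, 15717, 25680, 22998 and 22767 normalised counts in the controls and 12565, 13327, 16254, 22977 and 15758 with IL-1β. It was lower in all lines, although the difference in line 4 rounds to 0.00 on the log2 scale. The log2-fold change was −0.38 ± 0.19 (SE, n = 5 lines, 95% interval −0.80 to 0.03) and was not DE (limma adjusted p = 0.154, and 0.0303 with the line as a block). Its size stayed under the fold threshold of the DE rule in both fits.

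The JUN genes, which supply the main partners of FOS proteins, differed little. *JUN* held 14425, 9498, 11690, 12306 and 14276 normalised counts in the controls and 10046, 9593, 10380, 11114 and 8489 with IL-1β, lower in lines 1, 3, 4 and 5 and 0.01 higher on the log2 scale in line 2. The log2-fold change was −0.32 ± 0.13 (SE, n = 5 lines, 95% interval −0.59 to −0.04, limma adjusted p = 0.0879), and was not DE. *JUNB*, an immediate-early gene whose protein can oppose JUN at some promoters, ranged from 12180 to 15981 normalised counts in the controls and from 10507 to 17565 with IL-1β. *JUND*, the most constantly expressed JUN gene, ranged from 6456 to 9243 and from 5348 to 9267. Their log2-fold changes of −0.10 (95% interval −0.41 to 0.21) and −0.03 (95% interval −0.36 to 0.31) were within the spread between lines, with 2 lines higher and 3 lower for each.

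*MAFF* encodes a small MAF protein, which has no activation domain and pairs with other bZIP proteins. It held 5278 to 8396 normalised counts in the controls and 4015 to 8565 with IL-1β, and the log2-fold change of 0.14 (95% interval −0.35 to 0.62, limma adjusted p = 0.682) was not DE. Line 5 with IL-1β was the lowest of the 5 IL-1β libraries for *FOS*, *FOSB*, *JUN*, *JUNB*, *JUND*, *ATF3*, *MAFF* and *BATF3*. In that library 5 of 10 AP-1 genes were more than 1 below the median of the IL-1β libraries on the log2 scale, against 365 of 14719 genes overall. Its part in the results was not tested, and the number of AP-1 genes DE without line 5 was 2, as with it.

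**Figure D2:**
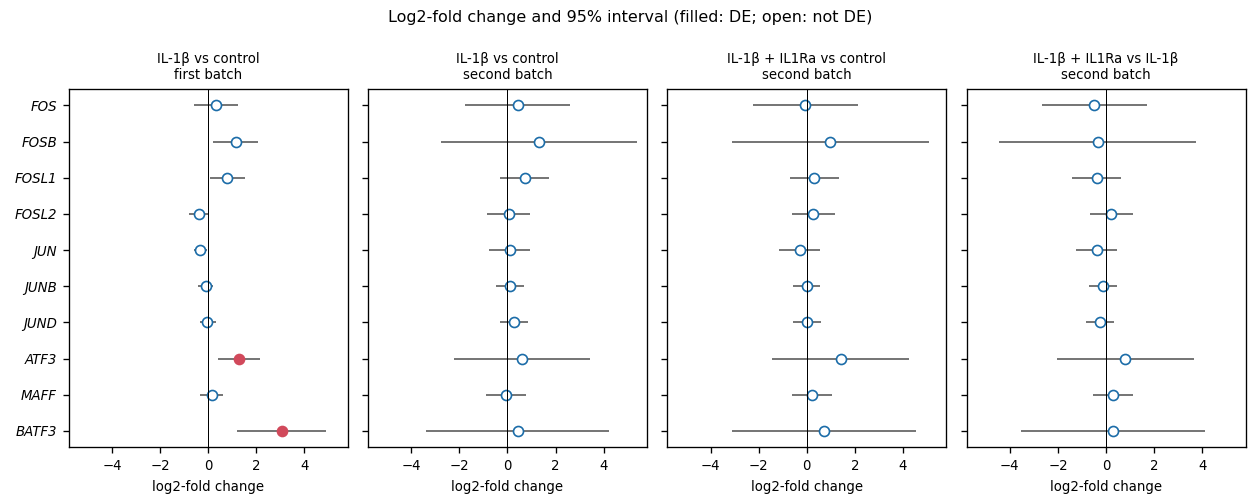
Log2-fold change of each AP-1 gene in the 4 comparisons, from limma on log2(normalised count + 1), with 95% intervals as horizontal lines. Filled points are DE and open points are not, so that only *ATF3* and *BATF3* in the first batch are filled. The intervals of all 10 genes are wider in the second batch, which has 3 lines instead of 5, and are widest there for *FOS*, *FOSB*, *ATF3* and *BATF3*. All intervals are from the fit without the line as a block, which leaves out the pairing.

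In the second batch none of the AP-1 genes was DE between IL-1β and control. By limma this was 0 of 10, with 0 of 10 at an unadjusted p under 0.05, where 0.341% of the 16705 genes tested were DE and 11.4% passed that unadjusted p. In the blocked fit the number of AP-1 genes DE was again 0 of 10, whereas 5.18% of all genes were DE. There 1 of 10 (*FOSL1*) had an unadjusted limma p under 0.05, a count for which no share over all genes was worked out. The smallest adjusted p of the 10 was 0.634 without and 0.141 with the block (limma, both for *FOSL1*). The groups overlapped for all 10, against 16.4% of all genes without overlap, and 1 of 10 was higher in every line, against 19.1% of all genes.

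That gene was *FOSL1*, which held 1281, 1744 and 1502 normalised counts in the controls of lines 6, 7 and 8 and 1463, 4067 and 2448 with IL-1β. The differences were 0.19, 1.22 and 0.70 on the log2 scale, and the log2-fold change was 0.71 ± 0.45 (SE, n = 3 lines, 95% interval −0.32 to 1.73). *FOSL2* held 9026, 8452 and 10824 normalised counts in these controls and 15239, 6352 and 9507 with IL-1β, higher in line 6 and lower in lines 7 and 8, with a log2-fold change of 0.05 (95% interval −0.84 to 0.95).

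The IL-1β library of line 7 stood apart for *FOS* and *FOSB*. *FOS* held 315, 905 and 818 normalised counts in the controls of lines 6, 7 and 8 and 211, 4115 and 650.2 with IL-1β. *FOSB* held 14.9, 26.0 and 34.1 in the controls and 3.14, 1168 and 47.1 with IL-1β. In that library 3 of 10 AP-1 genes and 6 of 18 other immediate-early genes tested were more than 1 above the median of the IL-1β libraries on the log2 scale, against 1207 of 16705 genes overall. One of them was *DUSP1*, a phosphatase that switches MAP kinases off and is itself an immediate-early gene, with 12663 normalised counts against 4608 and 3608 in lines 6 and 8 (this gene was picked after its values were seen). What set this library apart was not tested.

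The fitted log2-fold changes of *FOS* (0.43, 95% interval −1.75 to 2.60) and *FOSB* (1.31, 95% interval −2.78 to 5.40) rested on that library. Without line 7 they were −0.45 and −0.74, and without that library alone, an alternative chosen after seeing the data, −0.73 and −0.81. The latter fit sets IL-1β libraries of lines 6 and 8 against controls of lines 6, 7 and 8, so it is not balanced over lines. *ATF3* held 174, 910.1 and 1391 normalised counts in the controls and 251, 3008 and 1026 with IL-1β, higher in lines 6 and 7 and lower in line 8, with a log2-fold change of 0.60 (95% interval −2.23 to 3.44), which was 0.05 without line 7. *BATF3* held 0, 12.5 and 14.8 in the controls and 1.04, 20.7 and 10.6 with IL-1β. For *FOSB*, *FOSL1*, *ATF3*, *MAFF* and *BATF3* line 6 was the lowest in every condition.

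*JUN*, *JUNB*, *JUND* and *MAFF* had log2-fold changes of 0.09, 0.12, 0.26 and −0.07 in this comparison, each inside a 95% interval that included 0. *JUN* held 5324, 6399 and 5528 normalised counts in the controls and 6636, 8841 and 3852 with IL-1β, so that lines 6 and 7 were higher and line 8 was lower.

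**Figure D3:**
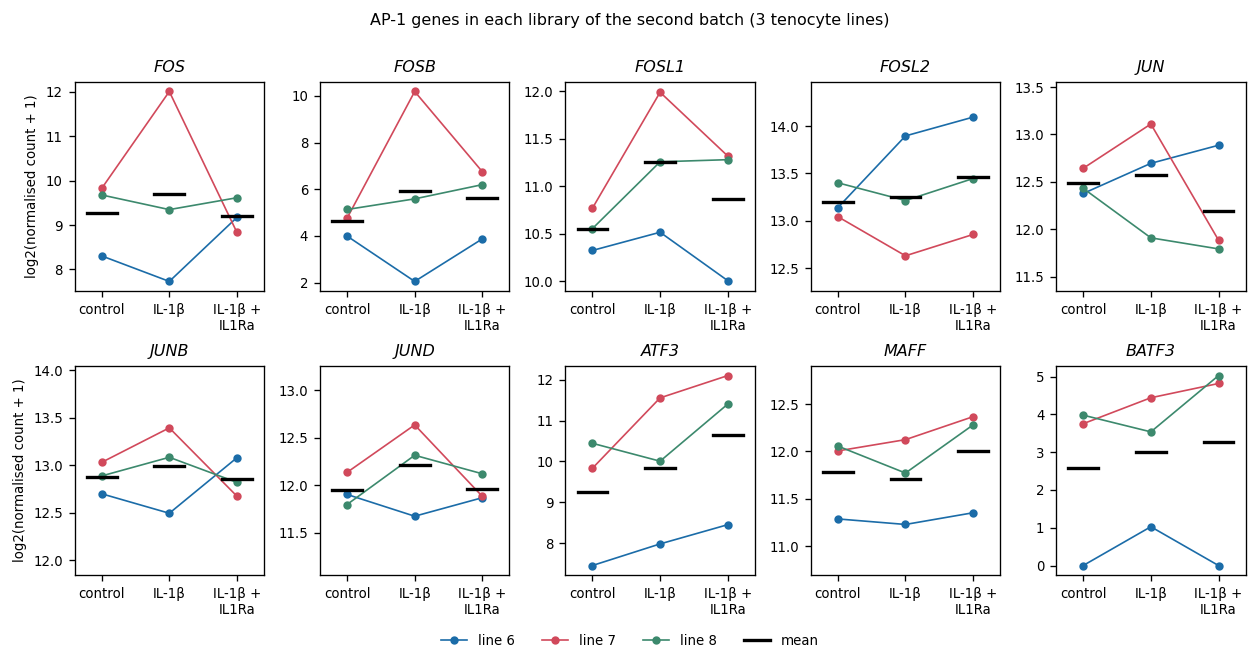
AP-1 genes in the 9 libraries of the second batch, as log2(normalised count + 1) on a separate vertical scale for each gene. Points are libraries, coloured lines join the 3 libraries of a tenocyte line, and black bars are means of the 3 lines. The IL-1β library of line 7 is far above the others for *FOS* (4115 normalised counts) and *FOSB* (1168 normalised counts). Line 6 is lowest in each condition for *FOSB*, *FOSL1*, *ATF3*, *MAFF* and *BATF3*.

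With IL1Ra added to IL-1β, no AP-1 gene was DE against control or against IL-1β alone. Against control the limma count was 0 of 10, with 0 of 10 at an unadjusted p under 0.05, where 0.0120% of all genes were DE and 5.67% had an unadjusted p under 0.05. Against IL-1β alone it was 0 of 10 with 0 of 10 at an unadjusted p under 0.05, where 0 of 16705 genes were DE and 2.78% had an unadjusted p under 0.05. With the line as a block 0 of 10 were DE in both comparisons, and 0.251% and 0.00599% of all genes were. In those blocked fits 1 of 10 (*ATF3*) and 0 of 10 had an unadjusted limma p under 0.05, with no share over all genes worked out. The groups overlapped for all 10 in both comparisons, against 11.8% and 6.47% of all genes without overlap. The comparisons of the second batch share their control or IL-1β libraries, so they are not independent of each other.

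When IL1Ra was added, *ATF3* stood at 349, 4390 and 2706 normalised counts in lines 6, 7 and 8, above both the control and the IL-1β library of the same line in each case. Against control the differences were 1.00, 2.27 and 0.96 on the log2 scale. The log2-fold change was 1.41 ± 1.24 (SE, n = 3 lines, 95% interval −1.43 to 4.25, limma adjusted p = 1) in the fit without a block, which leaves out the pairing. With the line as a block the SE was 0.37 and the 95% interval 0.54 to 2.28 (limma adjusted p = 0.189, not DE). Against IL-1β alone the differences were 0.47, 0.55 and 1.40, with a log2-fold change of 0.80 (95% interval −2.03 to 3.64, limma adjusted p = 1). With the block this interval was −0.06 to 1.67 (limma adjusted p = 0.621). *MAFF* was likewise highest in each line with IL1Ra, at 2618, 5281 and 4974 normalised counts, with log2-fold changes of 0.22 against control and 0.29 against IL-1β alone. These were the 2 of 10 AP-1 genes higher than control in every line, against 20.1% of all genes.

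*FOSL2* was the third gene higher in every line with IL1Ra than with IL-1β alone, making 3 of 10 against 15.6% of all genes. It held 17481, 7423 and 11166 normalised counts, and the differences from IL-1β alone were 0.20, 0.22 and 0.23 on the log2 scale (SD 0.02, n = 3 lines), small and alike. The log2-fold change of 0.22 (95% interval −0.68 to 1.11, limma adjusted p = 1) was 0.21 to 0.23 when any 1 line was left out.

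For *FOS* and *FOSB* IL1Ra went with lower values in line 7 and not in the other lines. *FOS* held 576, 455 and 783 normalised counts with IL1Ra, with differences from IL-1β alone of 1.44, −3.18 and 0.27 on the log2 scale. *FOSB* held 13.7, 107 and 72.4, with differences of 1.82, −3.44 and 0.61. The fitted changes of −0.49 for *FOS* and −0.34 for *FOSB* turned to 0.85 and 1.22 without line 7.

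*FOSL1* held 1027, 2553 and 2486 normalised counts with IL1Ra, lower than with IL-1β alone in lines 6 and 7 and 0.02 higher in line 8, with a log2-fold change of −0.39 (95% interval −1.41 to 0.64). *JUN* held 7571, 3788 and 3553 and was lower than control in lines 7 and 8 and higher in line 6. *JUNB* and *JUND* had log2-fold changes of −0.13 and −0.25 against IL-1β alone and of −0.01 and 0.01 against control. *BATF3* held 0, 27.2 and 31.6 normalised counts with IL1Ra, with a log2-fold change against control of 0.70 (95% interval −3.11 to 4.52).

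**Figure D4:**
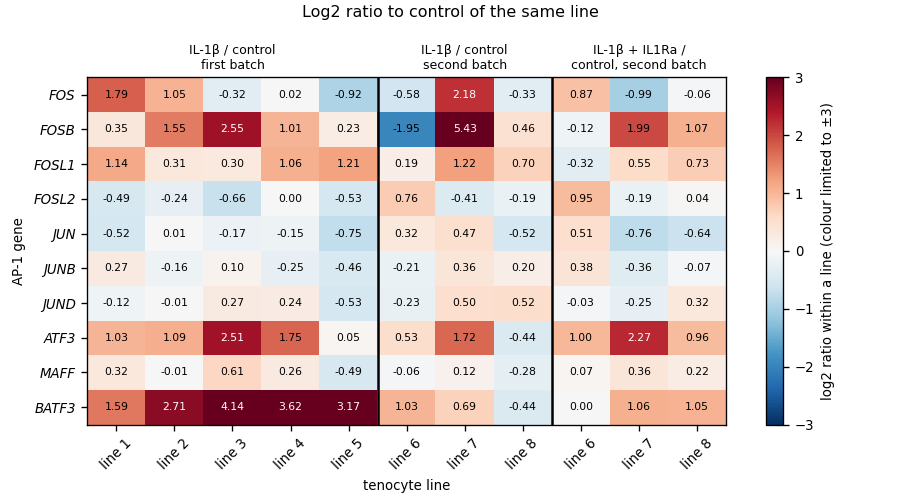
Log2 ratio of each treated library to the control library of the same tenocyte line, from log2(normalised count + 1), for the 10 AP-1 genes. Each cell is 1 line, red is higher and blue is lower than control, and the colour is limited to ±3. In the first batch *FOSB*, *FOSL1*, *ATF3* and *BATF3* are above 0 in all 5 lines, and the largest ratio of the second batch is *FOSB* in line 7 (5.43).

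The genes known to work around AP-1 were read from lists of its other bZIP partners, upstream kinases, SRF factors, other immediate-early genes, known targets and heat shock genes. Of 20 other bZIP genes tested in the first batch, 2 rose and 2 fell (20% DE, against 12.8% of all genes), with a median log2-fold change of −0.02 (0.00 over all genes). *CEBPB*, an activator of inflammatory genes, rose by 1.54 (limma adjusted p = 0.000301), and *MAFG*, a small MAF gene related to *MAFF*, rose by 1.13 (limma adjusted p = 0.000512, with 0.95 and so under the fold threshold without line 1). *JDP2*, which encodes a repressor that pairs with JUN proteins, fell by 1.25 on the log2 scale (limma adjusted p = 0.00142). It held 5056 to 9633 normalised counts in the controls and 2338 to 4003 with IL-1β, with no overlap, against 19.5% of all genes. *BACH2*, a repressor that pairs with small MAF proteins, fell by 1.28 on the log2 scale (limma adjusted p = 0.0169, and 0.0569, 0.0582 and 0.0732 without line 1, 2 or 5, where it was not DE).

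In RefSeq's genes for a horse assembly more recent than EquCab3.0, *JDP2* is the next protein-coding gene to *FOS*, followed by *BATF*, and *ATF3* and *BATF3* have 1 protein-coding gene, *GARIN4*, between them. *FOS* and *JDP2* therefore lie side by side. In the first batch *JDP2* was lower with IL-1β in 5 of 5 lines, as were 25.0% of all genes, while *FOS* was higher in 3 and lower in 2. *BATF* reached 2.96 and 5.78 normalised counts at most in the batches, and was not tested. In the second batch *MAFG* was DE, with 2047, 1335 and 1318 normalised counts in the controls of lines 6 to 8, 4374, 3770 and 3961 with IL-1β, and 2840, 3174 and 3139 with IL-1β + IL1Ra. Its log2-fold change between IL-1β and control was 1.39 ± 0.20 (SE, n = 3 lines, limma adjusted p = 0.0381), and was not DE under 8 alternatives, among them without line 7 (limma adjusted p = 0.438), without line 8 (limma adjusted p = 0.777) and without the IL-1β library of line 7 (limma adjusted p = 0.0757), with a range of 0.0116 to 0.777 over all alternatives.

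Of 21 genes of the MAP kinase cascade tested in the first batch 1 rose and 1 fell (9.52% DE, against 12.8% of all genes), with a median log2-fold change of −0.11. *MAP3K8*, a kinase upstream of ERK and JNK, rose by 1.73 (limma adjusted p = 0.0377, and 0.0938, 0.106 and 0.108 without line 2, 4 or 5, where it was not DE). *MAP2K6*, which activates p38, fell by 1.74 on the log2 scale (limma adjusted p = 0.00186). Of the 4 SRF factors tested, which regulate *FOS*, 0 were DE by limma, against 12.8% of all genes (2 at an unadjusted p under 0.05). Among them *ELK1* and *ELK3* had the largest log2-fold changes at 0.43 and −0.36.

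Among 18 other immediate-early genes 1 rose and 3 fell in the first batch (22.2% DE, against 12.8% of all genes), with a median log2-fold change of −0.70. *IER3*, a survival gene that NF-κB also drives, rose by 4.09 (limma adjusted p = 0.00144). The genes that fell were those of the zinc finger factors *EGR2* (by 3.41 on the log2 scale), *KLF10* (by 1.47) and *KLF2* (by 1.25), each lower in 5 of 5 lines with no overlap. They were named for their large change, and over all genes 25.0% were lower in every line and 19.5% did not overlap. Of 9 heat shock genes 0 were DE by limma, against 12.8% of all genes (2 at an unadjusted p under 0.05), and the largest log2-fold changes were 0.51 for *HSPH1* and −0.40 for *DNAJB1*.

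Among the known AP-1 targets 10 of 19 tested rose in the first batch and 0 fell (52.6% DE, against 12.8% of all genes), with a median log2-fold change of 1.67. The 4 with the largest change were the chemokine gene *CXCL8* (9.87), the cytokine gene *IL6* (8.72), the stromelysin gene *MMP3* (6.51) and *PTGS2* (6.18), which encodes the prostaglandin enzyme COX2. Each was higher in 5 of 5 lines with no overlap. Over all genes 24.8% were higher in every line and 19.5% did not overlap. Most of these targets also answer to NF-κB, and the list does not separate the factors. The list was also chosen with earlier results of these data known, so its share of DE genes cannot serve as a test. The AP-1 genes had a median log2-fold change of 0.23.

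**Figure D5:**
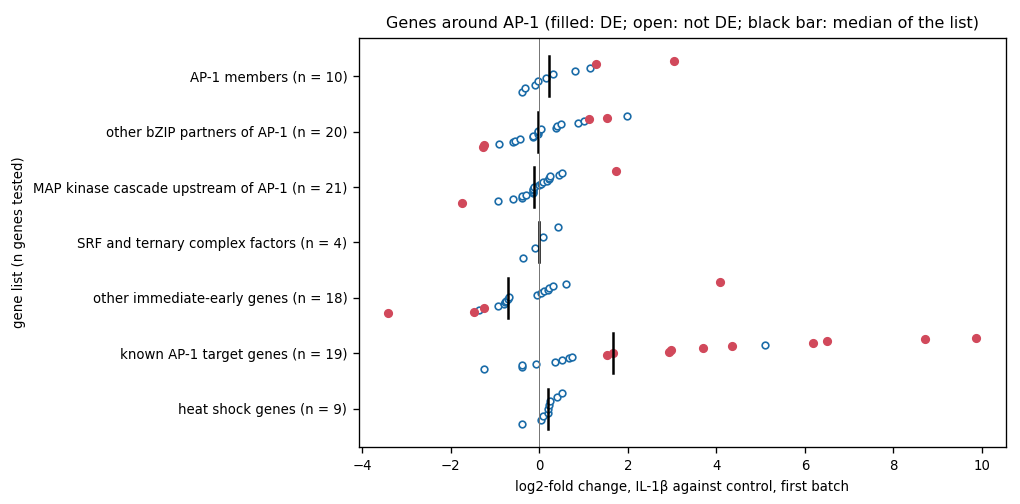
Log2-fold change between IL-1β and control in the first batch for the AP-1 genes and the lists around them, on the horizontal axis, with 1 point per gene tested. Filled points are DE, open points are not, and black bars are list medians, which run from −0.70 for the other immediate-early genes to 1.67 for the known AP-1 targets.

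Line 6 differed from lines 7 and 8 in the level of some targets with IL1Ra. *CXCL8* held 28.4 normalised counts in the control of line 6, 22788 with IL-1β and 27.8 with IL-1β + IL1Ra, whereas lines 7 and 8 held 20896 and 25689 with IL-1β + IL1Ra. With IL-1β alone *CXCL8* stood at 239410 to 252470 in lines 7 and 8, so it was lower with IL1Ra in these lines too. *IL6* held 127, 168090 and 13776 in the control, IL-1β and IL-1β + IL1Ra libraries of line 6. In lines 7 and 8 *IL6* stood at 136540 to 137100 with IL-1β alone and at 201720 and 119250 with IL-1β + IL1Ra. The AP-1 genes of line 6 followed no single order over the same libraries. *ATF3* (174, 251 and 349), *FOSL2* (9026, 15239 and 17481) and *JUN* (5324, 6636 and 7571) were highest with IL1Ra and lowest in the control. *FOSL1* (1281, 1463 and 1027) was highest with IL-1β alone and lowest with IL1Ra, and *BATF3* held 0, 1.04 and 0. *FOS*, *FOSB*, *JUNB*, *JUND* and *MAFF* were lowest with IL-1β alone. Over the 6 lists 2 genes (*MAFG* and *IL6*) were DE between IL-1β and control in the second batch, 11 with the line as a block, and 0 were DE in the other comparisons (1 and 0 with the block). Of all genes 0.341% were DE between IL-1β and control there, and 5.18% with the block.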

How the data were processed

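The signal values were deposited as normalised counts: the authors quantified EquCab3.0 transcripts with Salmon, brought them to gene level and normalised each batch in DESeq2 (DESeq2 1.36, R 4.2.1, per the submitters' processing notes). Each value is therefore relative to the rest of its batch, and batches were analysed separately. Of the low values 76.5 to 80.2% (first batch) and 72.3 to 81.9% (second batch) of a library lay within 0.1 of a whole read. The deposited values had already been normalised and were not all whole reads, so limma was used in place of a count model. Limma 3.58.1 (R 4.3.3, lmFit, eBayes with trend, tested on simulated data) was run on log2(normalised count + 1) for genes that reached 10 normalised counts in 5 (first batch) or 3 (second batch) libraries or more. Benjamini-Hochberg adjustment covered all genes tested. Of all columns 0 were left without a sample, and sequences and coordinates were not used here.

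Libraries of a line share a donor, which pairs them: deviations from condition means correlated at 0.35 to 0.58 (first batch) and 0.54 to 0.79 (second batch) within a line and at −0.62 to 0.29 between lines. The fit reported first had no block, and line as a block was an alternative. Others were pseudocounts of 0.5 and 5, no filter, equal library sums, quantile normalisation, no trend, 2 conditions only and leaving out lines.

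The AP-1 genes and all lists were chosen with earlier results of these data known. Named are the AP-1 genes and, from each list around them, the up to 4 DE genes with the largest first-batch change, or 2 where none was DE, and the 3 genes with the profile nearest to *BATF3*, *ATF3* and *FOSB*, of which 1 is not reported here. The genes *CD14*, *CD68*, *TNMD*, *SCX*, *DCN*, *LUM*, *PTPRC*, *CD79A*, *CD3E*, *DUSP1* and *BATF* were named after their values were seen.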

Additional observations from a re-analysis of the deposited data

Results flagged for a closer look

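The control library of line 3 in the first batch held 205.4 normalised counts of *ATF3*, whereas the other 4 controls held 548.5 to 794. Its gap to the nearest library took up 0.726 of the range on the log2 scale, above the critical value of 0.71. The IL-1β library of the same line held 1172, so line 3 has the largest *ATF3* difference of the batch (2.51 on the log2 scale), and without this line the log2-fold change was 0.98 and not DE. It was the only library set apart in this way in 20 groups of 5 libraries, and chance sets apart about 1 in 20 groups.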

How the results depend on the processing

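The depth limits *BATF3* and *FOSB*, which held few counts in most libraries, and 3 lines limit the second batch. Without a block the second-batch intervals of *FOS*, *FOSB*, *ATF3* and *BATF3* spanned more than 4 on the log2 scale. With the line as a block those between IL-1β and control were −1.32 to 2.18, −1.51 to 4.14, −0.26 to 1.47 and −0.89 to 1.74, so leaving out the pairing also widened them. Leaving out only the IL-1β library of line 7 and all alternatives on the lists around AP-1 were chosen after seeing the data. That fit is not balanced over lines, so that the level of line 7 enters it: *FOSL2* between IL-1β + IL1Ra and IL-1β alone was −0.09 in it and 0.22 without all of line 7, and *ATF3* between IL-1β and control was −0.25 and 0.05. Where a cause is not named, the cause was not tested.

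In the first batch the number of AP-1 genes DE was 0 to 2 when lines were left out (0 without line 1, 2, 3 or 4), the log2-fold change of *FOS* ran from −0.04 (without line 1) to 0.63, and that of *JUND* from −0.11 to 0.10 (without line 5). The number of DE genes ran from 2 to 5 for the other bZIP genes, from 1 to 2 for the MAP kinase cascade and from 3 to 7 for the tenocyte markers.

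With the tenocyte line as a replicate block, *FOSB* became DE in the first batch, which made 3 AP-1 genes, and the block changed no other AP-1 call. Over the 6 lists around AP-1 the block moved the number of DE genes in the second batch from 2 to 11 between IL-1β and control and from 0 to 1 between IL-1β + IL1Ra and control. That number was 1 between IL-1β and control with no filter on low values, with equal library sums, with quantile normalisation and without the trend.

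Equal library sums moved the median log2-fold change of all genes between IL-1β and control in the second batch to −0.19, and turned *FOSL2* to −0.13, *JUN* to −0.10 and *JUNB* to −0.06 there. Between IL-1β + IL1Ra and control *JUND* turned to −0.07 with equal library sums and to −0.04 with quantile normalisation.

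Leaving out lines, or the IL-1β library of line 7, moved the log2-fold changes between IL-1β and control in the second batch over −0.73 to 0.93 for *FOS*, −0.81 to 2.94 for *FOSB*, −0.30 to 0.36 for *FOSL2*, −0.18 to 0.39 for *JUN*, −0.08 to 0.28 for *JUNB*, −0.28 to 0.03 for *MAFF*, −0.25 to 1.13 for *ATF3* and −0.30 to 0.86 for *BATF3*. Over the 6 lists it gave 0 to 8 DE genes (8 without line 6, 0 without line 7, line 8 or that library).

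Between IL-1β + IL1Ra and control, *FOS* ran from −0.53 to 0.40, *FOSL2* from −0.07 to 0.50, *JUNB* from −0.21 to 0.16 and *JUND* from −0.14 to 0.14, with 0 to 3 DE genes over the 6 lists (3 without line 6). Between IL-1β + IL1Ra and IL-1β alone, *FOS* ran from −1.45 to 0.85, *FOSB* from −1.42 to 1.79, *FOSL2* from −0.09 to 0.23, *JUN* from −0.67 to 0.04, *JUNB* from −0.49 to 0.16 and *BATF3* from −0.32 to 1.00. The number of AP-1 genes DE in the second batch was 0 under all alternatives run. Few genes of any kind were DE in those fits, so this count can show little about the AP-1 genes. Of all genes 0 to 5.18% were DE between IL-1β and control. The range was 0 to 0.377% between IL-1β + IL1Ra and control, and 0 to 0.0599% between IL-1β + IL1Ra and IL-1β alone.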

Other observations

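The balance of *FOSL1* to *FOSL2* within a library, a measure chosen after the values were seen and given without a test, was higher with IL-1β than in the control in all lines of the first batch. The log2 ratio of *FOSL1* to *FOSL2* was higher by 1.63, 0.54, 0.96, 1.06 and 1.74 in lines 1 to 5 (mean 1.19 ± 0.50, SD, n = 5 lines). In the second batch the differences were −0.56, 1.63 and 0.89 in lines 6, 7 and 8 with IL-1β, and −1.27, 0.74 and 0.68 with IL-1β + IL1Ra. Line 6 differed in direction from lines 7 and 8 under both treatments.

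Among the genes whose first-batch profile lay nearest to that of *BATF3* were *ANGPT1* and *GPR18*, with root mean square differences of 0.68 and 0.79 on the log2 scale over 10 libraries, where the median of 12350 candidate genes was 2.02. Over the 9 second-batch libraries the differences were 1.03 and 0.88, against a median of 1.95. For *ATF3* the nearest genes were *NUP210L* (0.29), *BMP2* (0.31) and *SMOX* (0.40), against a median of 0.96, and in the second batch they stood at 1.36, 1.53 and 1.21 against 1.60. For *FOSB* they were *ECI2* (0.37), *NOD2* (0.42) and *PDE4B* (0.45), against 0.91, and in the second batch they stood at 2.21, 2.01 and 2.12 against 2.16. In order of nearness over the second batch, among the 12350 candidates, *ANGPT1* and *GPR18* stood at places 161 and 81 for *BATF3*. *NUP210L*, *BMP2* and *SMOX* stood at places 1591, 4670 and 734 for *ATF3*, and *ECI2*, *NOD2* and *PDE4B* at places 7099, 3284 and 5550 for *FOSB*.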
